A study of Mus musculus with 4 samples.

Results

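Transcripts of 10 genes that define regulatory T cells (Tregs) or that encode costimulatory and effector molecules carried by them were described in CD45+ leukocytes of 20967 melanomas. The genes were Foxp3, Ikzf2, Ikzf4, Icos, Tnfrsf4, Tnfrsf9, Tnfrsf18, Il10, Areg and Nrp1. They were taken by name from a table of 32285 genes, and all 10 were present in it. The 20967 melanoma line, a single line raised from C57BL/6 mice with an inducible Nras G12D allele and a Tyr-driven CreERT2, was implanted intradermally in 10 C57BL/6 mice of wild-type genotype. Of these, 5 received a control preparation and 5 received the glucocorticoid (GC) clobetasol propionate, and the leukocytes themselves carried no engineered allele. Each tumor had its own hashtag, an antibody-borne oligonucleotide that marks its cells. The 5 tumors of a group were pooled, sorted as live CD45+ cells and run in a single 10x channel per group, with 17100 cells loaded for control and 3500 for GC. Treatment and channel are the same split of the tumors, so their effects cannot be told apart.

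Tregs are CD4+ T cells that restrain other immune cells and are abundant in many tumors. Foxp3 is the transcription factor that fixes their identity, and Ikzf2 (Helios) and Ikzf4 (Eos) are Ikaros family zinc finger factors that act with it. Icos is a CD28 family costimulatory receptor. Tnfrsf4 (OX40), Tnfrsf9 (4-1BB, CD137) and Tnfrsf18 (GITR) are TNF receptor superfamily members that signal through TRAF adaptors to NF-κB, and all of them are also induced on activated conventional T cells. Il10 encodes a suppressive cytokine and Areg encodes amphiregulin, an epidermal growth factor receptor ligand tied to tissue repair by Tregs. Nrp1 (neuropilin-1) is a semaphorin and growth factor co-receptor found on thymus-derived Tregs and on some CD8 T cells.

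A level is given throughout as the unique molecular identifiers (UMIs, 1 for each RNA molecule captured) of a gene per 10000 UMIs of a cell, averaged over the cells of a tumor. The authors' 16 cluster names were used, of which 8 are lymphocytes (Tregs, CD4, CD8 1 to CD8 4, NK and γδT cells). Control tumors gave 3803 cells and GC tumors 305, with a median of 7440 and 9163 UMIs per cell. Tregs numbered 486 in control tumors, with 34 to 134 in each, and 14 after GC, with 1, 2, 5, 1 and 5 in replicates 1 to 5. Their median depth was 6169 UMIs in control and 8420 after GC. A level in a GC tumor's Tregs therefore rests on 1 to 5 cells.

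The Treg name was checked against markers. All 7 Treg markers (Foxp3, Il2ra, Ctla4, Ikzf2, Tnfrsf4, Tnfrsf18 and Izumo1r) were detected, and their summed level ran from 154.6 to 165.3 in control tumors and from 51.4 to 152.4 after GC. These markers include 4 of the 10 genes described, so their sum is no independent check. T cell markers summed to 18.5 to 22.6 in control Tregs and to 18.4 to 31.9 after GC. CD8 markers were at 0.104 to 0.276 in control Tregs and at 0 to 0.180 after GC. Macrophage markers (7 of 7 detected in control, 2 of 7 after GC) summed to 0.767 to 1.303 and 0 to 0.395, and B cell markers (6 of 6 and 2 of 6) to 1.23 to 2.33 and 0 to 3.36. Monocyte markers (3 of 5 and 1 of 5) summed to 10.6 to 16.1 in control Tregs and 1.23 to 7.31 after GC, the highest of the lists from outside the T cell lineage in control, and dendritic cell markers (6 of 7 and 2 of 7) to 1.61 to 3.30 and 0 to 7.25. The part of these markers in the results was not tested. Melanoma markers were at or near 0 in both groups, and mast cell markers were at 0.

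Genome positions are those of the GENCODE vM21 annotation of GRCm38, the build the authors aligned to. Foxp3 lies at chrX:7573644-7595245, Ikzf2 at chr1:69531214-69687245, Ikzf4 at chr10:128630843-128645991 and Icos at chr1:60977927-61000320. Tnfrsf9 lies at chr4:150914562-150946102, and Tnfrsf4 (chr4:156013843-156016612) and Tnfrsf18 (chr4:156026164-156028895) are near neighbors on the same strand. Il10 lies at chr1:131019845-131024974, Areg at chr5:91139599-91148432 and Nrp1 at chr8:128358604-128503363. Reads in introns were counted and the use of strand was not given in the sources used here, so UMIs of Foxp3, Ikzf2, Ikzf4, Icos, Tnfrsf9, Tnfrsf18 and Nrp1, which overlap other annotated genes, may hold some from those.

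The 250 bases before a RefSeq start site of Areg, Nrp1 and Tnfrsf9 are shown because these 3 genes were furthest below control in Tregs after GC by ratio. Capitals mark the only match of the motifs searched in these 3 windows. The motifs were AGAACA (the hexamer bound by the glucocorticoid receptor, present in 16.1% of all 32851 promoter windows of this length), TGANTCA (AP-1, 6.75%) and TGACGTCA (CRE, 1.55%), on both strands.
Areg (GRCm38.p6, chr5:91139349-91139598, plus strand): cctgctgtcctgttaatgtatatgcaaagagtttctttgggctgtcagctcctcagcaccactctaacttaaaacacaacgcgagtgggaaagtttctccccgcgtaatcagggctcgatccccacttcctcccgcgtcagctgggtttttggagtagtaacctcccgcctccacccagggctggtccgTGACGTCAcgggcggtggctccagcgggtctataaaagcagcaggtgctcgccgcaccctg
Nrp1 (GRCm38.p6, chr8:128358823-128359072, plus strand): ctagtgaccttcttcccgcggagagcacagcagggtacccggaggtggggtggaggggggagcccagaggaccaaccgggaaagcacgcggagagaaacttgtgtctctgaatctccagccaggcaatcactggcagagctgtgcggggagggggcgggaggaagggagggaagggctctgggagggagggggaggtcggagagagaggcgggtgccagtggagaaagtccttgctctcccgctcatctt
Tnfrsf9 (GRCm38.p6, chr4:150919905-150920154, plus strand): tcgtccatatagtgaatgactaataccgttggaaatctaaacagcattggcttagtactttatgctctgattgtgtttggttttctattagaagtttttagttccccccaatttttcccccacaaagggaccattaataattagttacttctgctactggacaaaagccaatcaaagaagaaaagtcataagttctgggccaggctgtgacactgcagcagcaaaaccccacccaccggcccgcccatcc
The CRE in Areg lies 61 to 54 bases before its start. Tnfrsf9 has a second listed start site, whose window (chr4:150927749-150927998) overlaps annotated transcript and is not printed. That window holds an AP-1 match 15 to 9 bases before the start. The printed windows of Tnfrsf9 and Nrp1 also lie within the annotated bounds of these genes. AGAACA was found in 0 of the 8 windows held for 6 of the genes, which says only that these letters are not in these 250 bases. Icos, Ikzf2, Ikzf4 and Il10 had no entry.

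In control tumors, Foxp3 was close to restricted to the Treg cluster. It was at 4.73, 4.88, 4.27, 4.33 and 4.94 UMIs per 10000 in Tregs of control replicates 1 to 5, or 4.63 ± 0.312 (SD, n = 5). The next cluster, CD8 4, was at 0.335 with 2 tumors of 5 or more cells, so Tregs stood 13.8-fold above it with no overlap. Pooled over all 30 control CD8 4 cells Foxp3 was at 0.773, against 4.94 in all control Tregs, a smaller gap. Every other neighbor in the order overlapped the one below it. Of all 1711 control Foxp3 UMIs, 92.5% were in Tregs, and after GC 100% were. At least 1 Foxp3 UMI was found in 77.6% of control Tregs. Among tumor-associated macrophages (TAMs), which should lack the gene, it was found in 1.52%, at a median of 12880 UMIs per cell against 6169 in Tregs. Outside the Treg cluster it was found in 2.02% of 3317 control cells (exact binomial 95% interval 1.57 to 2.56) and in 0 of 291 GC cells (0 to 1.26, with a limit of 1.03% at 3 cells). Intervals and limits of this kind cover counting error only.

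Ikzf2 was also highest in Tregs, by a smaller ratio. It was at 87.7 ± 3.18 in control Tregs (83.3 to 92.2), 6.81-fold above the CD4 cluster at 12.9 ± 1.99 (10.1 to 14.9), with no overlap. CD8 4 (11.0, 2 tumors) overlapped the CD4 cluster and stood clear of CD8 2. From there CD8 2 (6.64), γδT cells (5.35), NK cells (5.03), eosinophils (4.88), CD8 3 (4.38) and CD8 1 (3.22) each overlapped the next in this order. Monocytes, TAMs, neutrophils and dendritic cells stayed at or below 0.511. Pooled over all control cells, Ikzf2 was at 83.1 in Tregs, 21.4 in CD8 4 and 15.2 in the CD4 cluster, so CD8 4 came next in that reading. Ikzf4 was at 2.03 ± 0.146 in control Tregs (1.79 to 2.15), which overlapped DC 1, a dendritic cell cluster, at 1.40 ± 0.757 (0.925 to 2.72). Below these came CD8 4 at 0.569, CD8 2 at 0.457, CD8 3 at 0.403 and CD8 1 at 0.306, each overlapping the next, with CD8 4 clear of DC 1.

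By tumor means the 4 costimulatory receptors formed a common order, with Tregs first and CD8 2 second in each. CD8 4 was ranked there on 2 tumors. Pooled over all control cells, Tnfrsf4 was at 2.42 in CD8 4 (exact Poisson 95% interval 1.96 to 2.97). It was lower in CD8 2, at 1.91 (1.73 to 2.11). For Icos, Tnfrsf9 and Tnfrsf18, CD8 2 was the highest of the CD8 clusters in both readings. Icos was least confined, with Tregs at 23.1 ± 1.07 (22.3 to 24.9) overlapping CD8 2 at 18.6 ± 3.40 (15.7 to 23.7), then γδT cells at 13.5, CD8 3 at 12.8, CD8 1 at 11.9, the CD4 cluster at 8.76 and CD8 4 at 7.28. NK cells were at 0.757, 9.62-fold below CD8 4. For the TNF receptors, Tregs stood clear of CD8 2 without overlap. Tnfrsf4 was at 8.58 ± 1.37 in Tregs and 1.86 ± 0.389 in CD8 2, a 4.61-fold gap, and Tnfrsf18 was at 4.69 ± 0.870 and 2.05 ± 0.172, a 2.28-fold gap. Tnfrsf9 was at 24.2 ± 3.08 in Tregs and 11.3 ± 1.56 in CD8 2, followed by DC 1 at 7.34 ± 2.01, CD8 4 at 4.68 and TAMs at 3.35 ± 0.883, so this receptor was also carried by myeloid clusters.

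**Figure D1:**
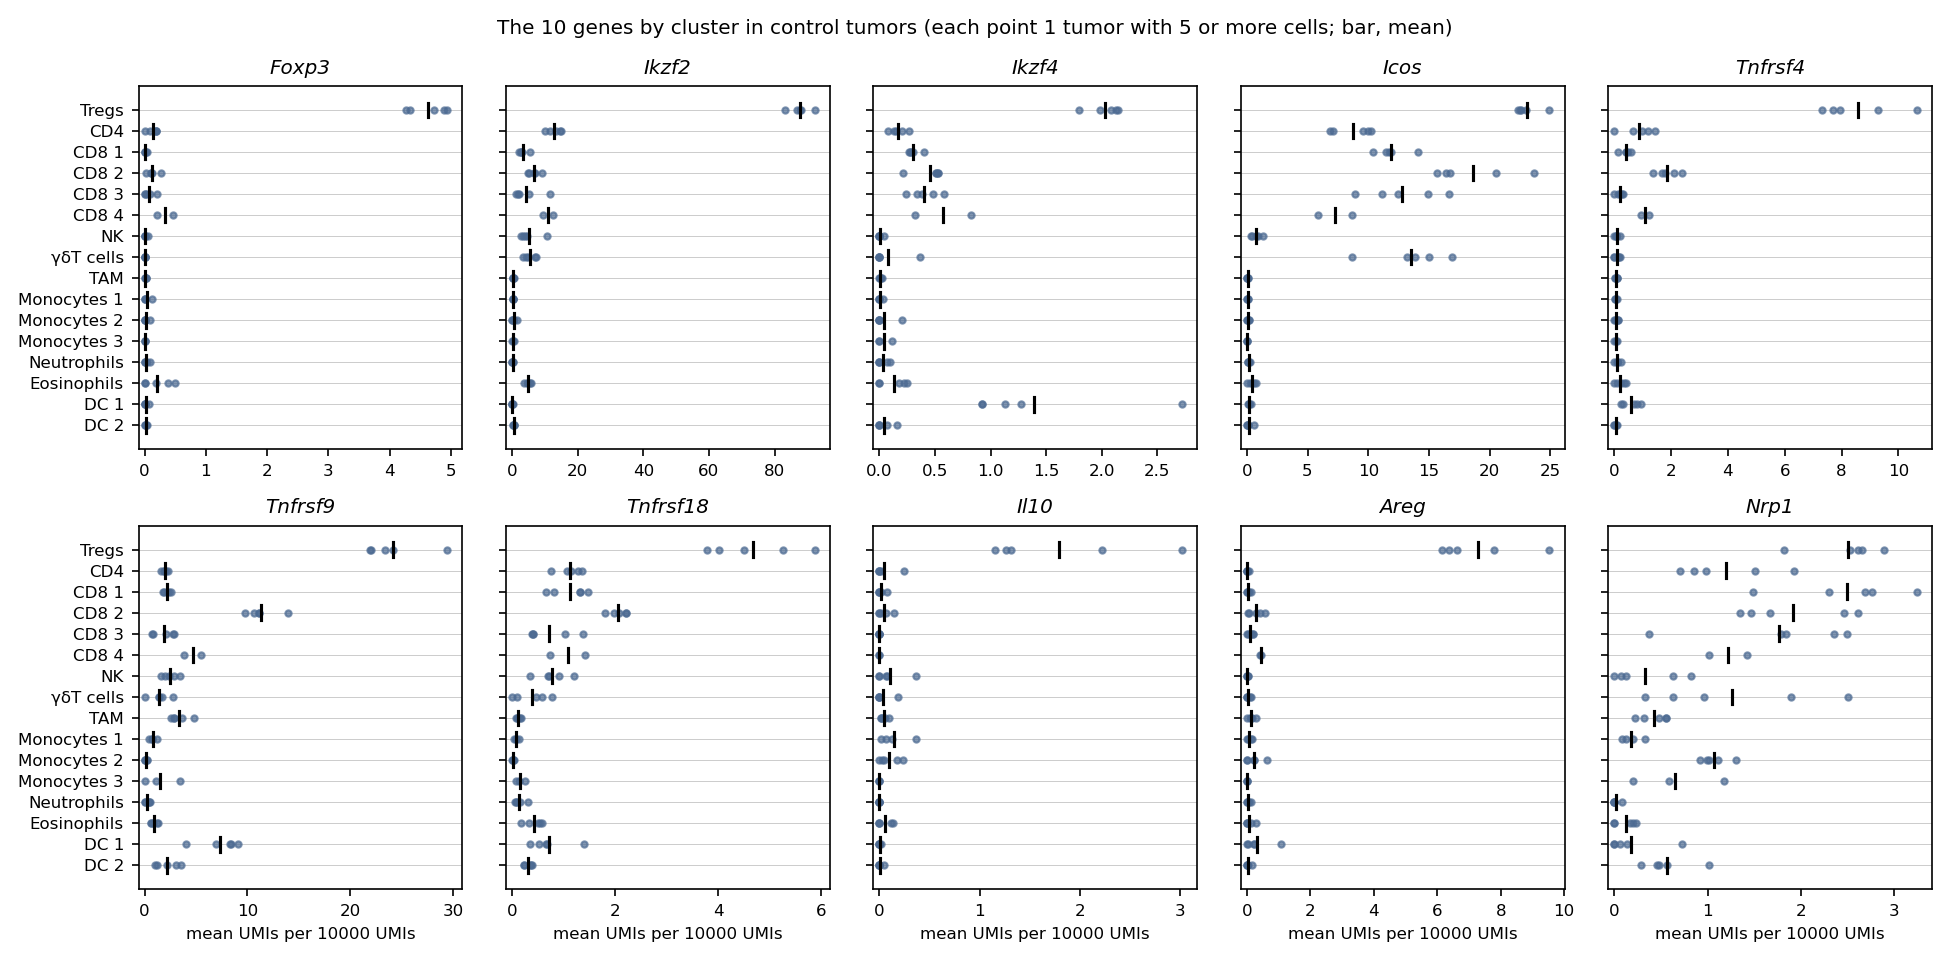
Levels of the 10 genes (mean UMIs per 10000, a linear axis for each gene) in the 16 clusters of control tumors, with 1 point per tumor that held 5 or more cells and a bar at the mean. Tregs hold the highest mean of each gene, with Nrp1 at 2.50 in both Tregs and CD8 1.

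Among the effector and surface genes, Areg and Il10 were Treg genes in these tumors and Nrp1 was not. Areg was at 7.29 ± 1.40 in control Tregs (6.15 to 9.54) and 0.434 in the next cluster, CD8 4 (2 tumors), a 16.8-fold gap. Pooled over all 30 control CD8 4 cells Areg was at 1.32, against 7.20 in all control Tregs, a smaller gap. Il10 was at 1.79 ± 0.807 in control Tregs (1.16 to 3.02), 12.6-fold above Monocytes 1 at 0.142. Neither overlapped its neighbor. Nrp1 was at 2.50 ± 0.405 in Tregs (1.82 to 2.89) and 2.50 ± 0.654 in CD8 1 (1.49 to 3.24), and these overlapped CD8 2 at 1.91, CD8 3 at 1.77, γδT cells at 1.26, CD8 4 at 1.22 and the CD4 cluster at 1.20 in a continuous order. Of all control Nrp1 UMIs, 42.2% came from CD8 1 to CD8 3 and 23.3% from Tregs. These levels describe clusters that were built from the same cells and genes, so no test was made between them.

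Effector transcripts of control Tregs came largely from a minority of cells. The tenth of Tregs with the most Il10 (49 cells) held 95.8% of the 498 Il10 UMIs, with up to 54 UMIs in a single cell, and 70 of 486 Tregs held any. For Areg the top 49 cells held 63.6% of 2305 UMIs and 232 cells held any, and for Nrp1 they held 56.7%. For the identity factors and receptors the top 49 cells held 25.5% for Ikzf2, 30.0% for Icos, 31.4% for Tnfrsf18, 33.0% for Foxp3, 34.5% for Tnfrsf9, 36.2% for Tnfrsf4 and 43.4% for Ikzf4. Genes with few UMIs reach a high share by counting alone, so these shares are a description of each gene and not a ranking. A median of 7 of the 10 genes was detected per Treg in both groups.

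Control Tregs were also split by whether they held a Foxp3 UMI. With each cell thinned to 2000 UMIs, 242 control Tregs held Foxp3 and 205 did not. Tnfrsf9 was found in 90.8% of the former and 79.8% of the latter, averaged over tumors, and was higher in 5 of 5 tumors. Areg (43.9% and 32.6%) and Tnfrsf4 (75.0% and 65.7%) were higher in 4 of 5, and Tnfrsf18 (56.3% ± 9.38 and 50.5% ± 12.7, SD over 5 tumors) was higher in 3 of 5. Nrp1 was found in 25.1% of both, and Il10 in 8.98% and 10.9%. No test was made of these shares, since Foxp3 itself helped to build the cluster.

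Outside the Treg cluster, Foxp3 UMIs were most frequent in CD8 4, where 7 of 30 control cells held at least 1. Of these 7, 5 held a Cd4 UMI and 2 a Cd8a or Cd8b1 UMI, while of the other 23 cells 0 held Cd4 and 21 held a CD8 transcript. Their Ikzf2 was at 56.6 against 3.09 in the other 23, and their median depth was 18760 against 11190 UMIs. CD8 4 thus held some cells with Treg transcripts, and it had 0 cells after GC. In the CD4 cluster, 9 of 253 control cells held Foxp3, and Ikzf2 was uneven there, with 65.8% of its UMIs in 25 cells and a median of 1 UMI per cell.

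The first comparison between treatments counted Foxp3 cells without the cluster names. At least 1 Foxp3 UMI was held by 12.8%, 14.4%, 9.28%, 12.8% and 9.22% of CD45+ cells in control replicates 1 to 5. In GC replicates 1 to 5 the shares were 5.56%, 2.67%, 4.51%, 4.55% and 3.80%. Every GC tumor was below every control tumor. The mean was 11.7% ± 2.34 (SD, n = 5) in control and 4.21% ± 1.07 (n = 5) after GC, a difference of -7.49 percentage points (exact two-sided permutation test, p = 0.00794, the smallest that 5 against 5 tumors can give). As a share of T and NK lymphocytes, Foxp3 cells went from 23.2% ± 5.10 to 9.07% ± 2.39, again without overlap. With cells thinned to 2000 UMIs, and 570 control and 34 GC cells left out as shallower, the shares were 8.28% and 3.10%. GC replicates 1 and 4, at the lowest numbers of cells, then stood at the 2 ends of the GC range and the groups overlapped (difference -5.18 points, exact permutation p = 0.0159).

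**Figure D2:**
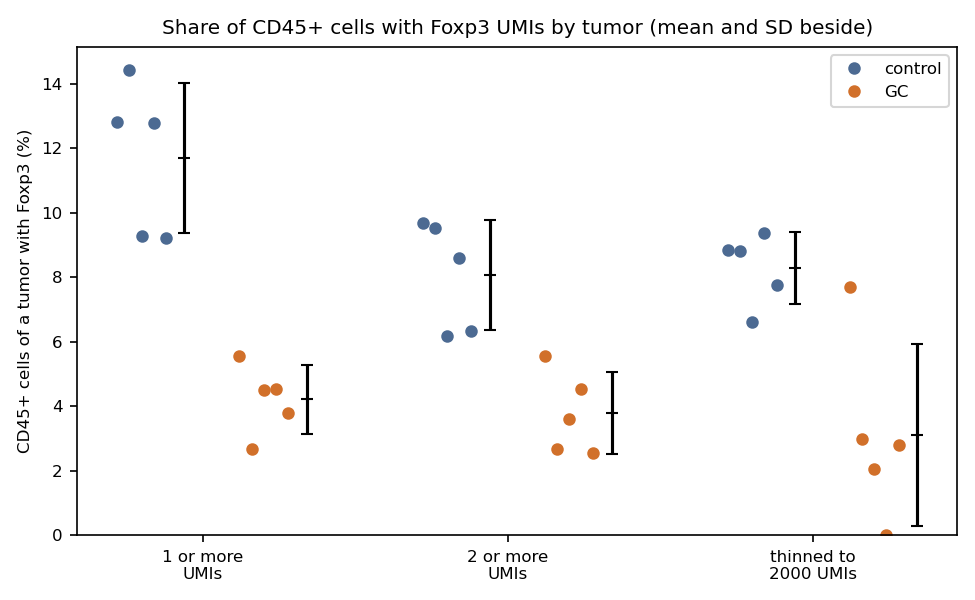
Percentage of CD45+ cells holding Foxp3, with 1 point per tumor and the mean and SD beside, at 1 or more UMIs, at 2 or more, and at 1 or more after thinning cells to 2000 UMIs. At 1 or more UMIs all 5 GC tumors lie at or below 5.56% and all 5 control tumors at or above 9.22%, and after thinning 1 GC tumor reaches into the control range.

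Within Tregs, 4 of the 10 genes were lower in every GC tumor than in every control tumor, beside 4.92% of all 5976 genes tested. By ratio Areg differed most. Areg was at 6.38, 7.79, 6.15, 6.61 and 9.54 UMIs per 10000 in Tregs of control replicates 1 to 5, and at 0, 0, 0.239, 0.839 and 1.62 in GC replicates 1 to 5. All GC tumors were below all control tumors, with means of 7.29 ± 1.40 and 0.540 ± 0.695 (n = 5 each), a 13.5-fold difference (exact permutation p = 0.00794). GC replicates 1 and 2, at 0, held 1 and 2 Tregs, and 47.7% of control Tregs held an Areg UMI. Pooled over cells, the 14 GC Tregs held 8 Areg UMIs, in 4 cells, which is 0.636 per 10000 (exact Poisson 95% interval 0.275 to 1.25) against 7.20 (6.91 to 7.50) in control. In edgeR's quasi-likelihood test over 5976 genes, its log2 change was -3.85 (adjusted p = 4.4e-08).

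Nrp1 was the next furthest below control in Tregs by ratio. It was at 2.65, 2.89, 2.61, 1.82 and 2.52 in control replicates 1 to 5 and at 0, 0, 1.43, 0 and 0.218 after GC. Only GC replicate 3 came near the control range, and the means of 2.50 ± 0.405 and 0.330 ± 0.624 differed 7.57-fold (n = 5 each, exact permutation p = 0.00794). With edgeR its log2 change was -2.28 (adjusted p = 0.0064). The 7 Nrp1 UMIs of the GC Tregs came from 2 cells. GC replicates 1, 2 and 4, at 0, held 1, 2 and 1 Tregs, and only 41.2% of control Tregs held an Nrp1 UMI. Most single control Tregs were thus at 0 as well. The exact test weighs every tumor alike, whatever its number of Tregs, and the part of this number was not tested.

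Of the 3 TNF receptors, Tnfrsf9 passed the test in Tregs and Tnfrsf4 and Tnfrsf18 did not. Tregs of control replicates 1 to 5 held 23.4, 22.0, 24.2, 29.4 and 22.0 UMIs per 10000, and those of GC replicates 1 to 5 held 3.68, 10.2, 14.6, 9.23 and 11.3. The groups did not overlap, at means of 24.2 ± 3.08 and 9.82 ± 3.99, a 2.47-fold difference (n = 5 each, exact permutation p = 0.00794). With edgeR the log2 change was -1.52 (adjusted p = 0.0062). The transcript was found in 92.4% of control Tregs and 100% of the 14 GC Tregs. Taken by tumor, this share was higher after GC at an exact permutation p under 0.05, opposite to the level. At 2000 UMIs per cell the transcript was found in 83.7% and 78.6%.

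Among the transcription factors, Ikzf4 differed and Foxp3 did not pass the test. Ikzf4 was at 2.08, 2.13, 1.99, 1.79 and 2.15 in control Tregs and at 1.23, 0.748, 0.956, 0.839 and 0.499 after GC, with no overlap (2.03 ± 0.146 and 0.854 ± 0.268, n = 5 each, 2.38-fold, exact permutation p = 0.00794). With edgeR its log2 change was -1.66 (adjusted p = 0.030), and the call was lost without control replicate 2 (-1.64, adjusted p = 0.060), GC replicate 2 (-1.60, adjusted p = 0.057) or GC replicate 5 (-1.50, adjusted p = 0.061). Foxp3 was at 4.27 to 4.94 in control Tregs and at 6.13, 7.28, 3.15, 3.36 and 2.34 after GC, so the GC tumors lay on both sides of the control range. Its means were 4.63 ± 0.312 and 4.45 ± 2.13 (n = 5 each, exact permutation p = 0.881). In the 2 GC tumors with at least 3 Tregs it was below control by 1.88 UMIs per 10000 (exact permutation p = 0.0476, the smallest that 5 against 2 can give).

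Ikzf2 passed the unadjusted test with overlapping groups. It was at 92.2, 87.0, 83.3, 88.2 and 87.6 in control Tregs and at 27.0, 7.28, 99.8, 52.0 and 64.1 after GC. The GC tumors were widely spread, and replicate 3 was above every control tumor (87.7 ± 3.18 and 50.0 ± 35.5, n = 5 each, exact permutation p = 0.0476). The call did not hold with edgeR (log2 change -0.93, adjusted p = 0.36), nor when any control tumor or GC replicate 1, 2 or 4 was left out, where the exact permutation p ran up to 0.0873. In the 2 GC tumors with at least 3 Tregs the difference was -5.75 UMIs per 10000 (exact permutation p = 0.571).

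The other 4 genes did not pass in Tregs. Icos was at 22.3 to 24.9 in control and at 4.90, 27.7, 29.0, 11.8 and 24.6 after GC (exact permutation p = 0.508, n = 5 each). Tnfrsf4 was at 7.32 to 10.7 and at 3.68, 11.9, 11.6, 5.87 and 4.60 (exact permutation p = 0.571, n = 5 each), and Tnfrsf18 was at 3.78 to 5.87 and at 1.23, 3.42, 5.30, 3.36 and 3.30 (exact permutation p = 0.111, n = 5 each). Without GC replicate 3, Tnfrsf18 passed (difference -1.86, exact permutation p = 0.0159). Il10 had the widest spread, at 1.16 to 3.02 in control and at 3.68, 0, 0.299, 15.1 and 14.4 after GC (exact permutation p = 0.302, n = 5 each). Its 71 UMIs in GC Tregs came from 7 of 14 cells, a pooled level of 5.64 (exact Poisson 95% interval 4.41 to 7.12) against 1.55 (1.42 to 1.70) in control. A single GC Treg held 30 of these 71 UMIs, and 3 held 10 or more. The interval covers counting error only and not this unevenness between cells. With edgeR the log2 change of Il10 was 1.41 (adjusted p = 0.45).

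In all, read as levels, 5 of the 10 genes were lower in Tregs at an exact p under 0.05, 0 were higher, and 4 did not overlap. Of all 5976 genes tested in Tregs, 11.3% were lower and 3.93% higher by the same unadjusted exact test, and 4.92% had every GC tumor below every control tumor. By edgeR, 4 of the 10 were lower at an adjusted p under 0.05, against 3.38% of all genes. The median log2 ratio of the 10 was -0.65 on the per-10000 scale, beside 0.04 over all genes tested. On edgeR's own scaling the median of all genes was -0.30, so Areg, Nrp1, Tnfrsf9 and Ikzf4 were below that shift as well. Depth and the number of Tregs per tumor moved with treatment, and their part in these differences was not tested.

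**Figure D3:**
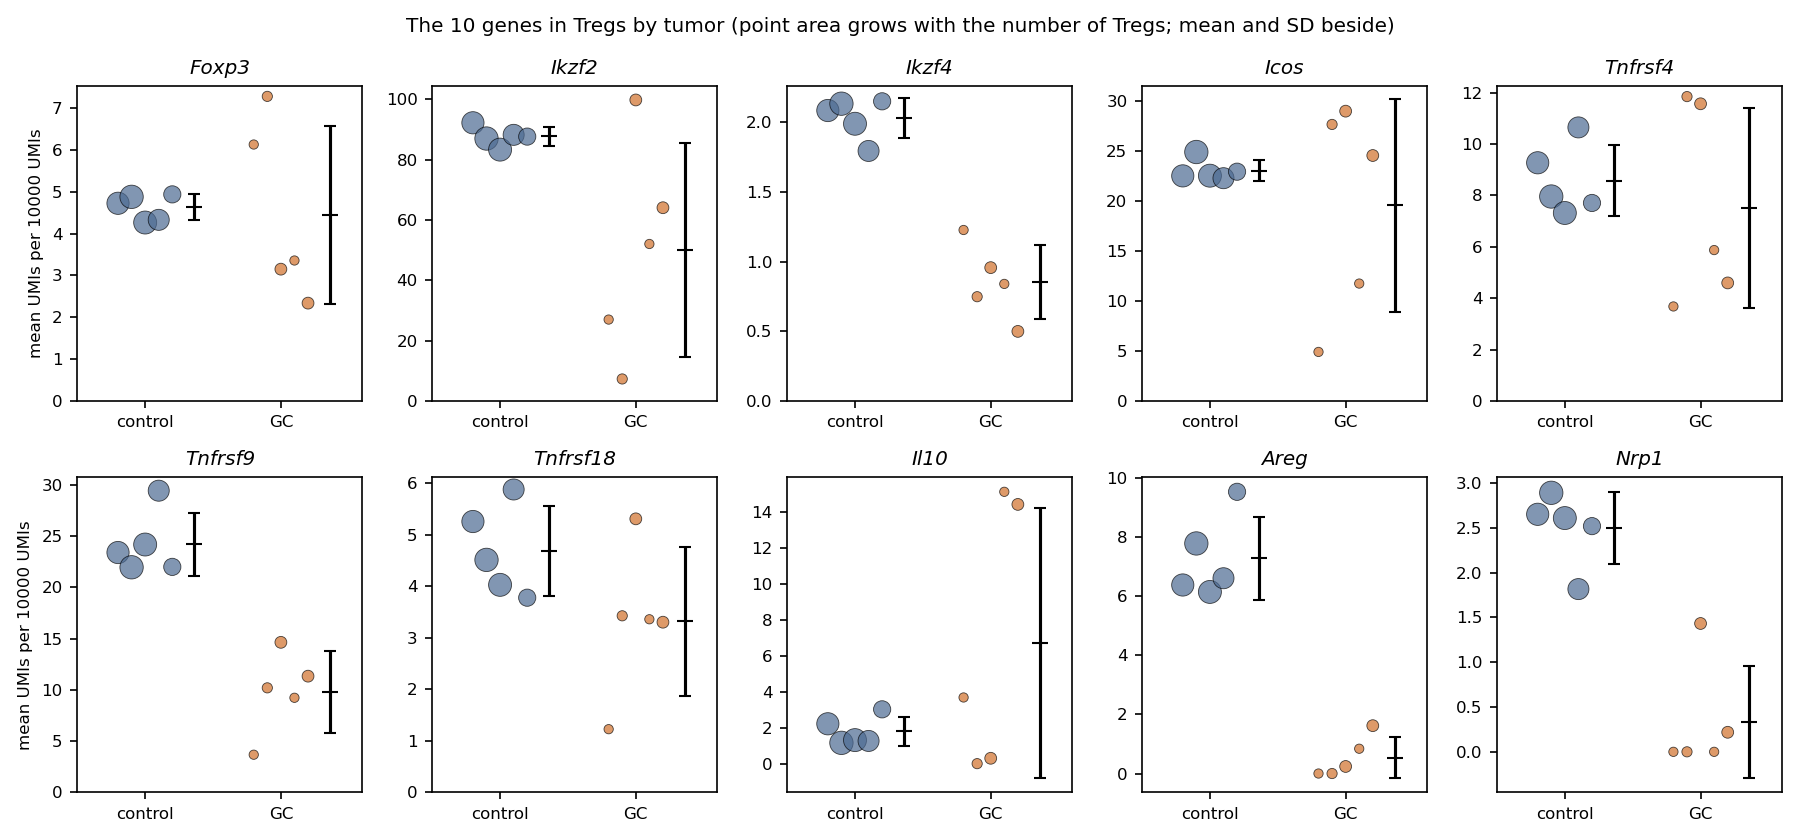
Level of each of the 10 genes in Tregs, in UMIs per 10000, with 1 point per tumor for control and GC, an area that grows with its number of Tregs, and the mean and SD beside. Areg, Nrp1, Tnfrsf9 and Ikzf4 show every GC tumor below every control tumor, as did 4.92% of all 5976 genes tested. Foxp3, Icos, Tnfrsf4, Il10 and Tnfrsf18 overlap between groups, and Ikzf2 has GC replicate 3 above all controls.

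Other genes of these pathways were read in the same Tregs, from lists chosen with earlier results of these data known. Of 22 further Treg identity genes tested, 8 were lower and 1 higher at an exact p under 0.05, and edgeR called 5, all lower, against the same shares of all genes. Il1rl1, the IL-33 receptor, went from 5.81 ± 1.15 to 0.684 ± 0.998 UMIs per 10000, and Entpd1, the ectonucleotidase CD39, from 2.87 ± 0.134 to 0.850 ± 0.710. The cytokine genes Ebi3 (0.485 to 0.0923) and Tgfb1 (1.93 to 0.550) were lower too, with Ebi3 below the filter of 0.2 after GC. Il2ra, the high-affinity IL-2 receptor chain and named after its values were seen, went from 25.6 ± 2.32 to 11.7 ± 4.98 without overlap. Izumo1r, the folate receptor family member FR4, was the 1 that was higher (1.33 ± 0.119 to 2.07 ± 0.556, exact permutation p = 0.0476, n = 5 each).

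Below the TNF receptors, 7 of 16 TRAF and NF-κB genes were lower in Tregs and 0 higher by the exact test, beside 11.3% and 3.93% of all genes. By edgeR 5 were lower, beside 3.38% of all genes. Rel, the c-Rel subunit, went from 9.74 ± 1.86 to 3.23 ± 0.754, and Birc2, the ubiquitin ligase cIAP1, from 4.50 ± 0.721 to 1.23 ± 0.433. Bcl2l1, which encodes the survival protein Bcl-xL, went from 4.37 ± 0.901 to 1.24 ± 0.665, and the inhibitor Nfkbie from 0.523 to 0.0240. Of 7 other TNF receptor family genes tested, Tnfrsf13b (0.731 to 0.0439) and Fas (1.07 to 0.263) were lower, and of 4 other CD28 family genes Ctla4 was (28.8 to 20.3), against the same 11.3% of all genes. Nfkbie and Tnfrsf13b were below the filter of 0.2 after GC, so their fold changes rest on few UMIs there. The filter did not ask for that level in both groups. None of the 3 ligand and partner genes tested passed. Of 6 known glucocorticoid response genes, 2 were higher by the exact test, beside 3.93% of all genes. These were Fkbp5 (0.789 to 5.91) and Klf9 (0.133 to 3.39), and both were higher in every GC tumor. The share of all genes higher in every GC tumor is not given here. Klf9 was below the filter of 0.2 in control. Tsc22d3 (2.16 to 5.82) did not pass.

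CD8 T cells (clusters CD8 1 to CD8 3) allowed a fit with several cells per tumor, in 5 control and 3 GC tumors with at least 10 of them. By limma over 6158 genes, 0 of the 7 genes high enough to be tested passed at an adjusted p under 0.05, where 5.02% of all genes did. By limma 0 of the 7 had an unadjusted p under 0.05, beside 1344 of all 6158 genes. With edgeR 1 passed, Tnfrsf9, beside 380 of all 6158 genes. Tnfrsf9 was at 5.19, 5.47, 4.81, 3.82 and 5.39 in CD8 T cells of control replicates 1 to 5 and at 3.80, 7.87 and 7.64 in GC replicates 2, 3 and 5. Of the GC tumors, 2 were above all controls and 1 below. The log2 change was 0.32 by limma (adjusted p = 0.43) and 0.59 by edgeR (adjusted p = 0.028), and leaving out GC replicate 2 gave 0.65 (limma adjusted p = 0.0067).

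Nrp1 in CD8 T cells was at 2.65, 2.26, 2.04, 1.31 and 2.95 in control tumors and at 3.66, 1.21 and 0.865 in GC replicates 2, 3 and 5. GC replicate 2 was above and the other two below every control tumor, giving a log2 change of -0.43 (limma adjusted p = 0.54), which was -1.01 without GC replicate 2 (limma adjusted p = 0.030). In cluster CD8 1 alone, with 2 GC tumors, it was -1.71 (limma adjusted p = 0.0059), and in CD8 2 alone it was -0.33 (adjusted p = 0.59). The 5 GC tumors stood at 0, 0.615, 1.09, 0.931 and 0.400 for Nrp1 in CD8 1, on 4 to 21 cells each, all below the 1.49 to 3.24 of control tumors. A difference between the clusters in this change was not tested.

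Areg was under the filter in CD8 T cells and was not tested there in the main fit. It was at 0.00700 to 0.210 in control tumors and at 0.337, 0.255 and 0.364 in GC replicates 2, 3 and 5. This direction was opposite to that in Tregs. These levels rest on few UMIs and cells. After GC, 11 UMIs came from 2 of 54 CD8 1 cells and 29 from 7 of 46 CD8 2 cells. Ikzf2 was at 3.08 to 6.66 in control CD8 T cells and at 1.04, 6.29 and 2.35 after GC (log2 change -0.68, limma adjusted p = 0.38), and without GC replicate 3 its log2 change was -1.33 (limma adjusted p = 0.033). Icos (-0.12), Ikzf4 (-0.16), Tnfrsf18 (-0.12) and Tnfrsf4 (0.13) had small log2 changes with overlapping groups.

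Whether the change in Tregs differed from that in CD8 T cells was asked within tumors, in a test chosen after the data were seen. The log2 gap between the 2 classes was compared between 5 control and 3 GC tumors by limma over 5346 genes, of which 1.96% passed. None of the 7 genes tested passed, and 998 of all genes had an unadjusted p under 0.05. The gap fell by 2.38 for Nrp1 (unadjusted p = 0.042, adjusted p = 0.25), by 1.32 for Tnfrsf9 (0.0058 and 0.11) and by 1.23 for Ikzf4 (0.0085 and 0.13). Gaps for Ikzf2, Icos, Tnfrsf4 and Tnfrsf18 changed by -0.59, 0.35, -0.12 and -0.12. Areg, Foxp3 and Il10 were too low in CD8 T cells for this test.

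Among CD8 T cells, some other genes of the lists passed the limma test. Of 16 TRAF and NF-κB genes 4 were higher by limma at an adjusted p under 0.05 and 0 lower, beside 2.27% of all genes higher and 2.74% lower, and edgeR called 3 higher. These were Birc3 (log2 change 0.82), Nfkb2 (0.80), Nfkbia (0.77) and Tnfaip3 (0.48), which are themselves NF-κB targets. Of 16 further Treg identity genes, Gata3 (-1.14) and Itgae (-1.003) were lower, and Tigit (1.43), Prdm1 (1.18) and Rora (0.73) were higher. Of 3 other CD28 family genes tested, Pdcd1, the inhibitory receptor PD-1, was higher (6.15 ± 0.871 to 14.5 ± 1.73, log2 change 1.23, limma adjusted p = 0.00071).

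In the pooled T and NK lymphocytes, where fewer cells of a type and less RNA per cell cannot be told apart, Foxp3, Ikzf2, Ikzf4 and Areg were lower after GC and the other 6 genes did not pass. The fit used 5 control and 4 GC tumors with at least 10 cells, and 4 of the 10 genes were lower by limma at an adjusted p under 0.05, beside 5.7% of all 6231 genes. Foxp3 was at 1.52, 1.63, 0.917, 1.47 and 1.14 in control and at 0.857, 0.276, 0.258 and 0.234 in GC replicates 2 to 5. Groups did not overlap, and the log2 change was -1.63 ± 0.30 (SE, limma adjusted p = 0.0051). Ikzf4 fell by 1.10 on the log2 scale (0.767 ± 0.101 to 0.303 ± 0.0488, limma adjusted p = 0.0011), a call lost when GC replicate 1, with 9 lymphocytes, was added (-0.82, limma adjusted p = 0.11), and Areg fell by 2.11 (2.09 ± 0.458 to 0.468 ± 0.356, limma adjusted p = 0.0020).

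Ikzf2 fell by 2.20 on the log2 scale in the lymphocytes (29.0 ± 6.28 to 7.94 ± 5.41, limma adjusted p = 0.015), a call that edgeR did not make (adjusted p = 0.068). Tnfrsf4 (log2 change -0.79, limma adjusted p = 0.080), Tnfrsf9 (-0.56, 0.082), Tnfrsf18 (-0.62, 0.082), Nrp1 (-0.57, 0.23), Il10 (-0.55, 0.70) and Icos (-0.07, 0.80) did not pass. Nrp1 passed without GC replicate 2 (-0.88, limma adjusted p = 0.014) and Tnfrsf9 without GC replicate 4 (-0.67, limma adjusted p = 0.046). The median log2 change of the 10 was -0.71, beside -0.09 over all genes. Of 21 further Treg identity genes 5 were lower and 2 higher by limma in the lymphocytes, and of 16 TRAF and NF-κB genes 3 were lower and 1 higher, beside 5.7% of all genes lower and 3.82% higher.

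With the Treg cluster left out of the lymphocytes, in a fit added after the data were seen, the sign of Areg turned. Its log2 change was 1.25 ± 0.39 (SE, limma adjusted p = 0.079). Ikzf4 was then at -0.12 (adjusted p = 0.77), Ikzf2 at -1.24 (0.10), Tnfrsf9 at 0.54 (0.15), Tnfrsf4 at 0.21, Icos at 0.13, Tnfrsf18 at -0.12 and Nrp1 at -0.32 by limma, and none passed. Foxp3 and Il10 were under the filter there. In control tumors 84.1% of Areg UMIs came from Tregs and 3.36% from CD8 T cells, and after GC 15.1% and 75.5% did. For Tnfrsf9 the share of UMIs from Tregs was 45.8% in control and 11.2% after GC, for Tnfrsf4 it was 73.7% and 42.4%, for Ikzf2 77.0% and 61.3%, and for Icos 39.3% and 13.7%. Il10 kept 80.3% and 86.6% of its UMIs in Tregs.

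Across all CD45+ cells, with all 10 tumors, 3 of the 10 genes were lower by limma at an adjusted p under 0.05, beside 3.82% of all 6471 genes. Foxp3 was at 0.687, 0.832, 0.495, 0.729 and 0.519 in control and at 0.341, 0.194, 0.142, 0.153 and 0.148 after GC, with no overlap (log2 change -1.37 ± 0.21, SE, limma adjusted p = 0.0040). Ikzf2 (log2 change -2.14, limma adjusted p = 0.030) and Areg (-1.63, limma adjusted p = 0.031) also did not overlap, but each lost its call in 8 of 19 alternatives, among them each control tumor left out. Nrp1 fell by 0.86 (limma adjusted p = 0.077, edgeR adjusted p = 0.020). Ikzf4 passed without GC replicate 1 (limma adjusted p = 0.012).

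The median log2 change of all genes in CD45+ cells was -0.11 by limma and 0.01 by edgeR, and 151 of 398 calls were higher by limma but 377 of 610 by edgeR. In lymphocytes 238 of 593 and 362 of 632 calls were higher, and in CD8 T cells 140 of 309 and 240 of 380. Foxp3, Ikzf2, Ikzf4 and Areg had negative changes in lymphocytes under both scalings.

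**Figure D4:**
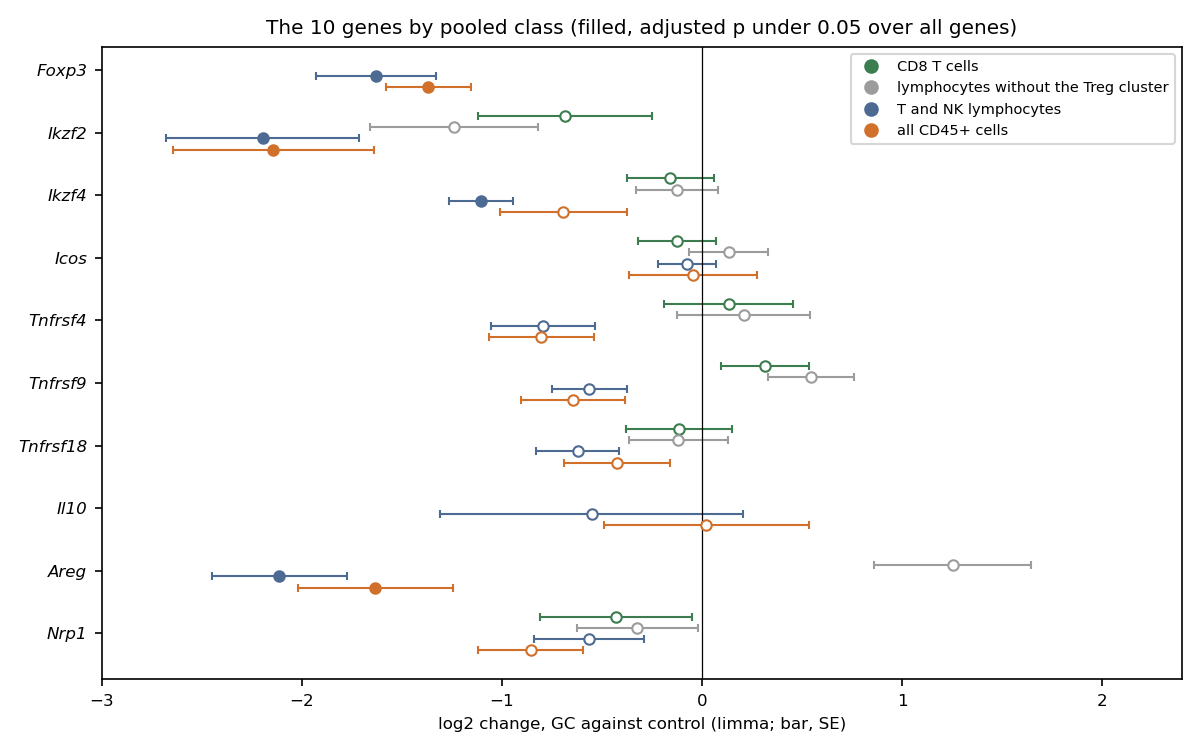
Log2 change (GC against control, by limma, bars of 1 SE) of the 10 genes in CD8 T cells, T and NK lymphocytes with and without the Treg cluster, and all CD45+ cells, with filled points for an adjusted p under 0.05. Foxp3, Ikzf2 and Areg are filled and below 0 in lymphocytes and CD45+ cells, Ikzf4 is filled in lymphocytes, and Areg without the Treg cluster lies at 1.25.

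The remaining lymphocyte clusters held few cells after GC (10 CD4, 4 NK and 11 γδT cells), so only pooled levels with exact Poisson 95% intervals can be given. In the CD4 cluster Icos was at 7.76 in control and 14.7 (12.4 to 17.2) after GC, Ikzf2 at 15.2 and 10.3 (8.41 to 12.4), and Tnfrsf9 at 1.44 and 0.192 (0.0232 to 0.693). Icos in γδT cells was at 14.6 and 14.7 (12.1 to 17.7). In NK cells Tnfrsf9 was at 2.85 and 0.629 (0.204 to 1.47) and Ikzf2 at 5.86 and 1.26 (0.604 to 2.32). These intervals cover counting error and not the spread between tumors.

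The genes most like each of the 10 across the 16 control clusters were found by Pearson correlation of log2(level + 0.1), over pooled libraries that share their depth differences. For Foxp3 they were Nid2 (r = 0.985), Izumo1r (0.95) and Itgb8 (0.949), and for Areg Itgb8 (0.960), Cep112 and Tnfrsf8. Tnfrsf4 and Tnfrsf18 shared Dusp4, which led for Tnfrsf4 (0.955), and Ikzf4 was closest to Birc2 (0.911). Icos followed the T cell genes Lat (0.983) and Cd3e, and Nrp1 was closest to Nfatc2 (0.931). The nearest genes of Ikzf2, Tnfrsf9 and Il10 were Snhg5 (0.944), Atl3 (0.904) and Gm50237 (0.95).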

How the data were processed

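The authors sorted live CD45+ cells of 5 control and 5 GC-treated tumors, aligned reads to mm10 with Cell Ranger 7.1.0 with introns included, and processed cells with Seurat 5.0.3 in R 4.3.1 and in Partek, keeping cells with 1 hashtag. The deposited expression values are the natural log of 1 plus UMIs per 10000, and the deposited cell table gives UMI counts, gene counts, hashtag counts, the percent of mitochondrial UMIs, the hashtag and the cluster. The table was not batch corrected, and doublets within 1 tumor were not removed further.

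Whole UMIs were recovered from 100% of values, within 0.01, in 4108 cells, and the channels shared 0 cell barcodes. The replicate was the tumor, and replicate numbers are names that pair nothing. Levels were averaged per tumor, log2(mean + 0.1) was fitted with limma 3.58.1 in R 4.3.3 (trend and robust), for tumors with at least 10 cells of a class and genes at 0.2 or more per 10000, and p was adjusted by the Benjamini-Hochberg method over all genes with a threshold of 0.05. The added 0.1 shrinks the fold changes of low genes. In Tregs, where no GC tumor held 10 cells, exact two-sided permutation tests over 252 arrangements were used, with p not adjusted over the 10 genes, and edgeR 4.0.16 on UMI sums across all genes was the alternative. DESeq2 1.42.0 was a further alternative in the 3 pooled classes. Scripts were tested on simulated data.

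All 10 genes are named. From each other list up to 4 genes are named, by the largest log2 change among those past the threshold, and where fewer pass by level in control Tregs. Il2ra and Izumo1r in Tregs and Rora in CD8 T cells were named beyond this rule. The 3 genes most like each of the 10 were taken by Pearson correlation. The genes and lists were chosen with earlier results of these data known. Alternatives changed the pseudocount, filter, scaling, minimum number of cells, clusters and tumors used. Promoter sequences are from RefSeq on GRCm38.p6, with entries for 6 of the 10 genes. Analyses used python 3.11.15 with scipy 1.17.1.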

Additional observations from a re-analysis of the deposited data

Results flagged for a closer look

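In 7 of 70 groups of 5 or 4 tumors, 1 tumor stood apart from the others by Dixon's test at the 95% level, which flags about 1 in 20 groups by chance. In Tregs these were Nrp1 in GC replicate 3, at 1.43 UMIs per 10000 against 0 to 0.218 in the other GC tumors, and Icos in control replicate 2, at 24.9 against 22.3 to 23.0. Foxp3 in lymphocytes was at 0.857 in GC replicate 2 against 0.234 to 0.276. In all CD45+ cells GC replicate 1 was at 0.341 for Foxp3 (others 0.142 to 0.194) and at 0.643 for Ikzf4 (others 0.0743 to 0.234). GC replicate 2 was at 0.335 for Tnfrsf18 (others 0.965 to 1.12), and control replicate 4 was at 0.767 for Nrp1 (others 1.11 to 1.25).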

How the results depend on the processing

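The number of genes called in CD8 T cells was 309, and it was 129 in cluster CD8 2 alone, 167 with no filter, 604 in tumors with at least 20 cells and 195 in those with at least 5. With 1 tumor left out it ran from 135 to 604. In lymphocytes it was 593, with 1094 in tumors with at least 20 cells and 328 to 804 with 1 tumor left out. In all CD45+ cells it was 398, with 1080 by DESeq2, 610 by edgeR, 607 in tumors with at least 20 cells and 101 to 666 with 1 tumor left out. Of the 10 genes, 5 passed in Tregs by the exact test and 4 to 6 did with 1 tumor left out, and by edgeR 4 passed and 3 to 5 did with 1 tumor left out, a setting added after the data were seen. The cause of these shifts was not tested. Areg, Nrp1 and Tnfrsf9 kept their Treg calls under every tumor left out. Read as the share of Tregs with a UMI, GC minus control turned positive for Foxp3 (14.3 points), Ikzf2 (0.887), Ikzf4 (10.7), Icos (2.97), Tnfrsf4 (9.04), Tnfrsf9 (7.28) and Tnfrsf18 (20.3). By the exact test on these shares, Foxp3, Icos, Tnfrsf4, Tnfrsf9 and Tnfrsf18 were higher after GC at an exact p under 0.05, and Nrp1 was lower. The share of all genes that pass this test was not computed, so no result about these genes as a group is read from it. Icos and Tnfrsf9 were found in 100% of the 14 GC Tregs, so their shares could be no higher. Areg, Ikzf2 and Ikzf4 did not pass. These shares go against the levels, so no order is read from them. The median depth was 8420 UMIs in GC Tregs and 6169 in control. With each cell thinned to 2000 UMIs and cells pooled over tumors, shares in control and GC Tregs were 54.1% and 50.0% for Foxp3. They were 99.1% and 92.9% for Ikzf2, 27.5% and 7.14% for Ikzf4, and 69.35% and 64.3% for Tnfrsf4. For Tnfrsf9 they were 83.7% and 78.6%, and for Tnfrsf18 55.5% and 28.6%. Among the genes named as positive, only Icos was still higher after GC, at 89.7% and 100%. These shares rest on 14 GC Tregs, and the part of depth was not tested. Areg in lymphocytes turned to 1.25 on the log2 scale without the Treg cluster. The share of cells with a Foxp3 UMI differed by -8.11 to -6.81 points with 1 control tumor left out.

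No paired analysis was possible because replicate numbers name hashtags of different mice in the 2 groups. The number of cells limits the Treg levels, since 14 GC Tregs stand for 5 tumors and 2 of these tumors hold 1 cell each.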
